A study of Mus musculus with 4 samples.

Results

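Bdnf and the 2 receptor genes Ntrk2 and Ntrk3 were taken as a set by name, with earlier results of these data known. They are 3 of the 20136 genes counted in 4 single-cell libraries of mouse BNST, the bed nucleus of the stria terminalis. The BNST is a part of the extended amygdala, and its neurons are mostly GABAergic. Each library came from tissue punches pooled from 6 male wildtype C57BL/6J mice kept on a reversed light cycle with free access to food, and the labels name no treatment, so the study has a single group of 4 libraries (Batch 1 to 4, here libraries 1 to 4) and no control arm. Cells were dissociated and captured with Drop-seq, which tags each captured mRNA near its 3′ end with a molecular identifier (UMI). All comparisons here are between cell classes within the same libraries.

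Brain-derived neurotrophic factor, encoded by Bdnf, is a secreted growth factor that neurons make as a precursor, sort into vesicles and release. It binds the receptor tyrosine kinase TrkB, encoded by Ntrk2, which signals through adaptor proteins to the MAP kinase, phosphoinositide 3-kinase and phospholipase C pathways. Astrocytes are known for a truncated TrkB that lacks the kinase domain. Ntrk3 encodes TrkC, the receptor of neurotrophin-3 (Ntf3), and neurotrophins can also bind the shared receptor p75 (Ngfr).

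On GRCm38, Bdnf lies at chr2:109674700-109727007 on the plus strand, Ntrk2 at chr13:58806569-59133970 on the plus strand and Ntrk3 at chr7:78175959-78738012 on the minus strand, by the GENCODE vM21 annotation. The 11 coding transcripts of Bdnf share 1 annotated 3′ end, so 3′ counts sum over its promoters. The 7 coding transcripts of Ntrk2 end at 6 different places. Of these, 2 encode the full-length receptor of 821 codons and 5 encode proteins of 466 to 492 codons. The tables hold 1 count per gene and cell, so an Ntrk2 value is a sum over full-length and truncated forms. The 6 coding transcripts of Ntrk3 have coding regions of 82 to 864 codons and 6 different 3′ ends. Each of the 3 genes overlaps at least 1 antisense gene in the annotation, and since no source used here states that strand was used in counting, reads from such a partner cannot be told apart from the gene's own. For Bdnf that overlap (Gm45346) is at the 5′ end of the gene. Of the antisense genes only Gm9885, which overlaps Ntrk3, is counted under its own name.

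Bdnf is a textbook target of activity-dependent transcription through the factor CREB, so its promoters were read beside the responsive genes described later. RefSeq (GRCm38.p6) gives 7 windows of 300 bases for Bdnf and 1 for Ntrk2, each covering 250 bases before a transcript start and 50 after it. The short form of the cyclic AMP response element, TGACG or CGTCA on the other strand, occurs in 1 of the 7 Bdnf windows and not in the Ntrk2 window, against 20.8% of 32851 windows of the same length. The full element TGACGTCA, which contains the short form, was in none of the 7 Bdnf windows and in 1.79% of all windows. The 250 bases before the start in the Bdnf window with the match (chr2:109692186-109692435, plus strand) are shown with the short form in capitals. Because counts are taken at the 3′ end, they do not say which of these promoters was used in any cell.

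Bdnf, 250 bases before the start: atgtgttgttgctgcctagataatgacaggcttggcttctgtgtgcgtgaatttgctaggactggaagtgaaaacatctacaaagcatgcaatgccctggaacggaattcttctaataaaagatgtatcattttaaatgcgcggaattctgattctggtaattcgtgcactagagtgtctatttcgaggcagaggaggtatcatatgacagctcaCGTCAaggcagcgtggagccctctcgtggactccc

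The libraries held 2640399 to 5652342 UMIs, library 1 the most, and 836 to 1281 cells per library passed the filters, 4177 in all with a median of 1843 UMIs. Barcodes shared between libraries numbered 20 over all pairs before filtering and 0 among kept cells. A cell was put in a class when it had at least 3 UMIs from at least 2 of the class's gate markers and these made up at least 66.7% of all gate-marker UMIs in the cell. This gave 2119 GABAergic neurons (Gad1, Gad2, Slc32a1), 75 glutamatergic neurons, 281 astrocytes, 916 oligodendrocytes, 104 oligodendrocyte precursors, 45 endothelial cells, 14 mural cells and 9 microglia. Markers that the gates did not use followed the labels. The summed level of Ntsr2, Slc39a12 and Aldh1l1 was 2279 CPM (UMIs per 1000000 UMIs of the class) in astrocytes and 2.62 CPM in GABAergic neurons, and the neuronal list Stmn3, Uchl1 and Celf4 was 3825 CPM in GABAergic neurons, 103 CPM in astrocytes, 79.4 CPM in oligodendrocytes and 536 CPM in oligodendrocyte precursors.

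All 75 glutamatergic neurons carried Slc17a6, the vesicular glutamate transporter VGLUT2, with 404 UMIs of it against 1 UMI of Slc17a7 (VGLUT1). A further 21 neurons had UMIs of both transmitter lists and stayed in neither class, and 242 neurons passed neither transmitter gate. The glutamatergic class held 39, 17, 7 and 12 cells in libraries 1 to 4. Library 3, with fewer than 10 such cells, did not enter means or tests for that class, and its values are given separately.

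Bdnf was concentrated in the few glutamatergic neurons, and few Bdnf UMIs were seen in glia. Of the 220 Bdnf UMIs in kept cells, 87 (39.5%) fell in the 75 glutamatergic neurons, which are 1.80% of the cells, 69 in the 2119 GABAergic neurons, 35 in the 21 neurons with both transmitter lists and 24 in the 242 neurons without a transmitter gate. Astrocytes held no Bdnf UMI, and oligodendrocytes and oligodendrocyte precursors held 1 each. The pooled GABAergic level was 7.87 CPM. The upper 95% counting limit was 3.57 CPM in oligodendrocytes, but 13.6 CPM in astrocytes and 43.9 CPM in precursors. The counts thus do not place astrocytes or precursors below GABAergic neurons.

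In glutamatergic neurons the Bdnf level was 257 CPM in library 1, 65.6 CPM in library 2 and 137 CPM in library 4, with 168 CPM from the 7 cells of library 3. In GABAergic neurons it was 6.98, 6.94, 10.7 and 8.41 CPM in libraries 1 to 4. The lowest glutamatergic library thus lay above the highest GABAergic library. Of 18449 genes with a UMI in either class, 2.99% were likewise higher in every glutamatergic library without overlap. Oligodendrocyte precursors reached 36.4 CPM in library 4, from their 1 UMI. Mean levels were 153 ± 96.9 CPM (SD, n = 3 libraries) and 8.25 ± 1.75 CPM (SD, n = 4). The difference on the log2(CPM + 1) scale within a library was 5.02, 3.07 and 3.88 in libraries 1, 2 and 4, a mean of 3.99 ± 0.98 (SD, n = 3). Over pooled UMIs the glutamatergic level was 25.7 times the GABAergic one (95% counting interval 18.5 to 35.8) and at least 18.4-fold higher than in astrocytes, taking 3 counts over the group as the floor.

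Bdnf was below the low-count filter of the edgeR fit, which left it without a test there. In the same fit without that filter, Bdnf was higher in glutamatergic neurons by a log2 difference of 4.41 (SE 0.35, edgeR quasi-likelihood adjusted p = 5.76e-32). The SE and p rest on a spread shared by all classes of the fit, among them glia with 0 or 1 Bdnf UMI. They do not measure how this difference varied over the libraries. With the filter, 3.08% of 3672 genes passed this comparison, 0.844% as higher. Library 1 held 69 of the 87 glutamatergic Bdnf UMIs. Without that library the within-library difference was 3.47 and the mean glutamatergic level 102 CPM. When every cell was thinned to 1000 UMIs, the difference was 1.25 ± 4.27 (SD). That value came from 1 random draw, and libraries 2 and 4 held only 5 and 6 glutamatergic Bdnf UMIs before it. The expected shares of cells with a Bdnf UMI at this depth, which need no draw, are given below.

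**Figure D1:**
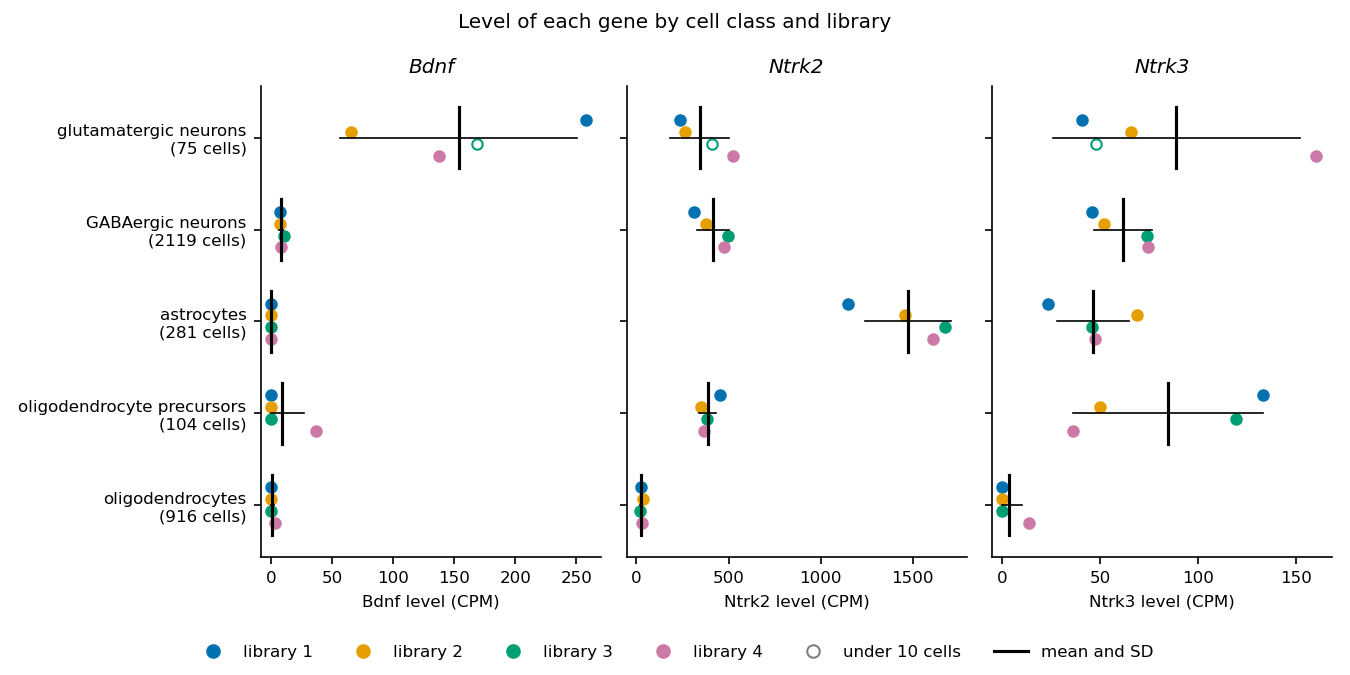
Levels of Bdnf, Ntrk2 and Ntrk3 in CPM (x axes, a scale of its own for each gene) in 5 cell classes (y axis). Each point is 1 library, open points come from fewer than 10 cells, the vertical bar is the mean over filled points and the horizontal line its SD. Bdnf is highest in glutamatergic neurons, with library 1 at 257 CPM, Ntrk2 is highest in astrocytes, and both receptors are lowest in oligodendrocytes.

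Detection per cell gave the same order. A Bdnf UMI was found in 28 of 75 glutamatergic neurons (37.3%) at a median of 5089 UMIs per cell, in 43 of 2119 GABAergic neurons (2.03%) at 3524 UMIs, and in 1 of 916 oligodendrocytes (0.109%), which serve as background, at 1388 UMIs. At a fixed depth of 1000 UMIs, with 3 glutamatergic and 168 GABAergic cells left out as too shallow, the expected share with a Bdnf UMI was 10.9% ± 6.07 (SD, n = 3) in glutamatergic and 0.755% ± 0.173 (SD, n = 4) in GABAergic neurons. Astrocytes gave 0 of 281 cells, which allows a share of up to 1.07% with a UMI at their median depth of 860 UMIs. Endothelial cells gave 0 of 45, which allows up to 6.67%, and with 14 mural cells and 9 microglia a 0 allows up to 21.4% and 33.3%.

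Within the glutamatergic class Bdnf was uneven. A set of 47 cells had no Bdnf UMI, 17 had 1 or 2, and 11 had 3 or more, and these 11 held 64 of the 87 UMIs, with 11 UMIs in the highest cell. No GABAergic neuron had more than 5. The 28 glutamatergic cells with a Bdnf UMI were deeper, at a median of 7251 UMIs against 4233 in the others, and how far depth accounts for the split was not tested. A list of early response genes, which neuronal activity and tissue dissociation are known to raise (11 genes, among them Fos, Junb, Egr1 and Arc), stood at 138 CPM in the glutamatergic cells with a Bdnf UMI and at 273 CPM in those without. Their receptor levels were 258 against 321 CPM for Ntrk2 and 55.2 against 61.3 CPM for Ntrk3. These values were pooled over libraries, those of the early response list from 30 and 58 UMIs. Library 1 held 20 of the 28 cells with a Bdnf UMI. Over all glutamatergic cells the list was 194 CPM in library 1 and 366 CPM in library 4. Library and Bdnf detection thus cannot be told apart in these contrasts.

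Neurons with UMIs of both transmitter lists had a Bdnf level of 333 CPM in the 10 cells of library 1 and 464 CPM in the 5 cells of library 2, and no Bdnf UMI in the 3 cells each of libraries 3 and 4. A Bdnf UMI was present in 7 of these 21 cells. The pooled glutamatergic level was 0.754 times theirs (95% counting interval 0.504 to 1.15). Their median depth was 5916 UMIs, and Scrublet had removed 62 of 4239 cells as doublets beforehand. Whether these 21 are single cells was not tested.

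**Figure D2:**
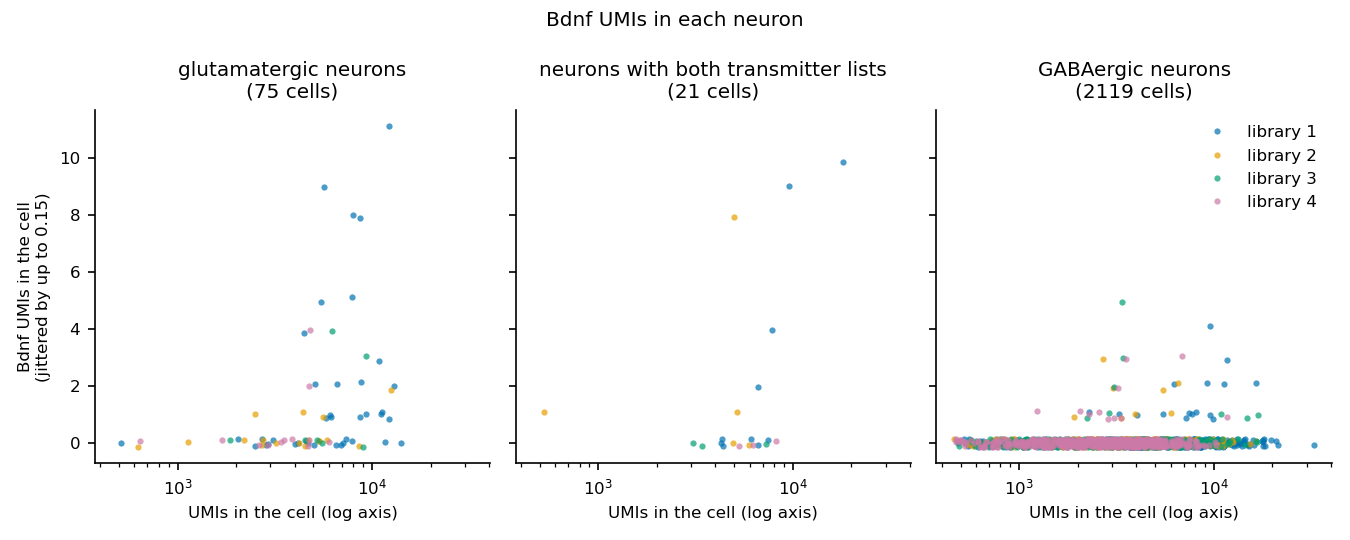
Bdnf UMIs in each neuron (y axis, jittered) against the UMIs of that cell (x axis, log scale) for glutamatergic neurons, neurons with both transmitter lists and GABAergic neurons, coloured by library. The glutamatergic cells reach 11 Bdnf UMIs and most of the high ones are from library 1, while GABAergic neurons of the same depth lie at 0 to 5.

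GABAergic neurons were split by marker UMIs into 12 subtypes, 9 of which had at least 10 cells in at least 3 libraries, and 1040 cells had no subtype gate. Their Bdnf UMIs were sparse. The Zic1 and Zic4 subtype held 11 of them in 7 of 71 cells, at 28.6, 73.7, 48.7 and 14.7 CPM in libraries 1 to 4, from 2, 5, 3 and 1 UMIs. It was the only subtype of the 9 with a Bdnf UMI in every library. Its mean was 41.4 ± 25.6 CPM (SD, n = 4), and it was 78.7 ± 66.6 CPM when the transmitter gate asked for 1 UMI and none of the other list.

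The Slc17a8 subtype, marked by the vesicular glutamate transporter VGLUT3, followed at 40.2, 0, 22.1 and 13.7 CPM, with a mean of 19.0 ± 16.8 CPM (SD, n = 4). The Cck and Greb1 subtype had 3.33, 0, 25.2 and 0 CPM. No Bdnf UMI was seen in 76 cells of the Six3 and Ifi27l2a subtype, 126 of Ppp1r1b and Crym, 34 of Lhx8 and Rorb and 28 of Avp and Gal. Libraries of neighbouring subtypes overlapped throughout this order. In the fit without the low-count filter, Bdnf differed among the 9 subtypes (F = 3.45, edgeR quasi-likelihood adjusted p = 0.00739), a test that rests on these few UMIs. In the fit with the filter, 33.5% of 3562 genes passed the same test. Bdnf in Zic1 and Zic4 cells was below the lowest glutamatergic library in 3 of 4 libraries.

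Ntrk2 was the most widely detected of the 3 genes, with 4422 UMIs in 1978 cells, and was highest in astrocytes. Astrocytes had 1151, 1461, 1675 and 1611 CPM of Ntrk2 in libraries 1 to 4, a mean of 1475 ± 234 CPM (SD, n = 4). GABAergic neurons had 311, 378, 499 and 474 CPM, a mean of 415 ± 87.0 CPM. Every astrocyte library was above every GABAergic library, and 8.49% of 18624 genes were higher in astrocytes without overlap. The log2 difference was 2.12 (SE 0.13, 95% interval 1.87 to 2.37, edgeR quasi-likelihood adjusted p = 8.72e-42). In this comparison 69.6% of 3672 tested genes passed the same threshold, 30.1% as higher and 39.5% as lower, so a call by itself says little here. The median of all genes in this fit was -0.35 on the log2 scale with TMM scaling and -0.16 with DESeq2's size factors.

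At 1000 UMIs per cell, an Ntrk2 UMI was expected in 71.5% ± 14.5 of astrocytes (SD, n = 3), 32.5% ± 6.36 of GABAergic neurons (n = 4), 26.7% ± 11.1 of oligodendrocyte precursors (n = 4) and 1.86% ± 0.929 of oligodendrocytes (n = 4). The unthinned shares were 70.8% in astrocytes and 66.4% in GABAergic neurons, at median depths of 860 and 3524 UMIs, so the gap between these classes was larger once depth was fixed. The fixed depth left out 181 of the 281 astrocytes.

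Ntrk2 was low in oligodendrocytes, the myelinating glia, with 24.3, 33.3, 17.2 and 27.7 CPM in libraries 1 to 4, a mean of 25.6 ± 6.70 CPM (SD, n = 4). Every oligodendrocyte library was under every library of the other 4 classes plotted, and 32.4% of 18744 genes were likewise higher in every GABAergic library. Against GABAergic neurons the log2 difference was -3.52 (SE 0.20, edgeR quasi-likelihood adjusted p = 6.30e-48), a comparison in which 79.0% of genes passed, 35.9% as higher and 43.1% as lower. Endothelial cells gave 0 Ntrk2 UMIs in 45 cells and 57414 UMIs, where 3 UMIs would be 52.3 CPM.

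Oligodendrocyte precursors, which divide and give rise to oligodendrocytes, kept Ntrk2 at a neuronal level of 452, 351, 382 and 364 CPM, a mean of 387 ± 45.1 CPM (SD, n = 4) that overlapped the GABAergic libraries. The difference from GABAergic neurons was -0.14 on the log2 scale (95% interval -0.60 to 0.31, edgeR quasi-likelihood adjusted p = 0.625), with 53.1% of genes past the threshold (23.6% higher, 29.5% lower). Oligodendrocytes were lower than their precursors by a log2 difference of -3.38 (SE 0.35, edgeR quasi-likelihood adjusted p = 2.85e-18, 48.1% of genes past the threshold). Astrocytes were higher than the precursors by 2.26 (SE 0.22, edgeR quasi-likelihood adjusted p = 3.00e-20, 29.4% of genes past it). The precursors carried the early response genes at 13069 to 21312 CPM per library, against 294 to 670 CPM in astrocytes, and the part of this in their receptor values was not tested.

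In glutamatergic neurons Ntrk2 was 239, 263 and 527 CPM in libraries 1, 2 and 4, and 409 CPM in the 7 cells of library 3. These values overlapped the GABAergic libraries. Within libraries 1 and 2 the glutamatergic value was the lower, and in library 4 it was the higher. The log2 difference from GABAergic neurons was -0.48 (95% interval -0.84 to -0.12, edgeR quasi-likelihood adjusted p = 0.159), in a comparison where 3.08% of genes passed, 31 higher (0.844%) and 82 lower (2.23%) with TMM scaling, or 53 higher and 48 lower with DESeq2's size factors. The difference did not pass after adjustment over all genes, and with cells thinned to 1000 UMIs it was 0.057 (edgeR adjusted p = 0.960). Bdnf, the ligand, and Ntrk2, its receptor, had different leading classes.

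**Figure D3:**
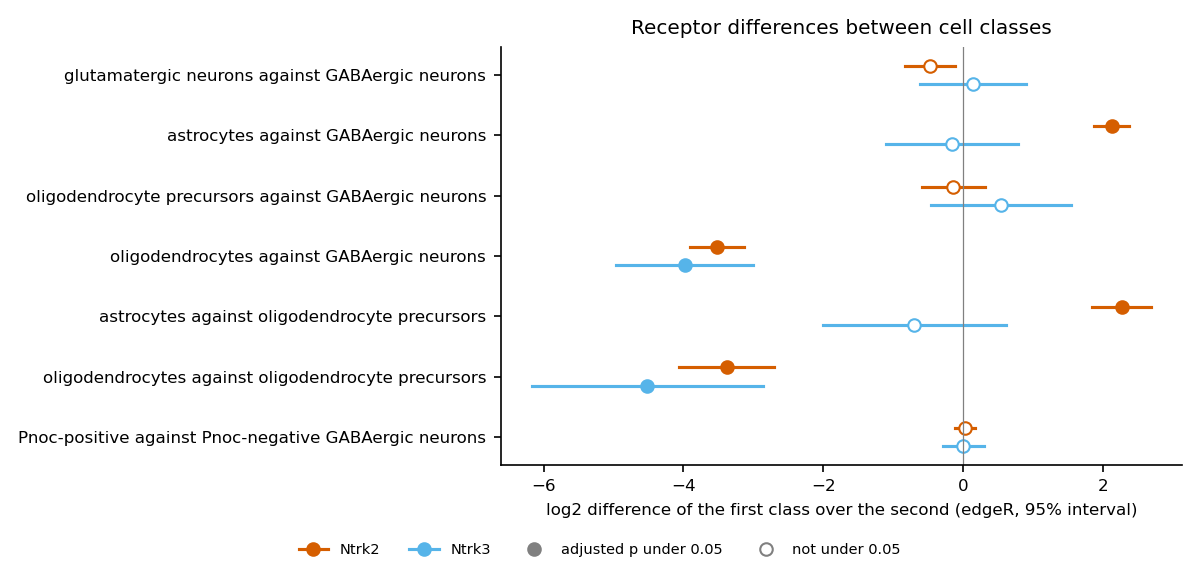
Log2 differences of Ntrk2 and Ntrk3 (x axis, with 95% intervals) for 7 comparisons of cell classes (y axis), from the edgeR fits; filled points have an adjusted p under 0.05. Ntrk2 lies at 2.12 in astrocytes and at -3.52 in oligodendrocytes against GABAergic neurons, Ntrk3 is past the threshold only in the comparisons with oligodendrocytes, and both are near 0 for Pnoc.

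Across the 9 GABAergic subtypes the mean Ntrk2 levels ran from 347 ± 80.7 CPM in the Tac2 and Ebf1 subtype (SD, n = 3) to 511 ± 108 CPM in the Sst and Npy subtype (SD, n = 4), and neighbours in the order overlapped throughout. The Sst and Npy cells, which express the neuropeptides somatostatin and neuropeptide Y, had 361, 616, 550 and 518 CPM in libraries 1 to 4. Library 1 had the lowest Ntrk2 level in 7 of the 9 subtypes, in GABAergic neurons as a whole and in astrocytes. The test of any difference among subtypes gave F = 1.68 (edgeR quasi-likelihood adjusted p = 0.232), where 33.5% of 3562 genes passed. Sst and Npy cells differed from the mean of the other subtypes by 0.33 on the log2 scale (95% interval 0.11 to 0.56, edgeR quasi-likelihood adjusted p = 0.113, with 3.73% of genes past the threshold). With a stricter subtype gate of 3 UMIs both tests passed, with F = 4.31 (adjusted p = 0.00911) among subtypes and a log2 difference of 0.52 (adjusted p = 0.00797) for Sst and Npy, and the latter also passed without the low-count filter (0.42, adjusted p = 0.0289).

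**Figure D4:**
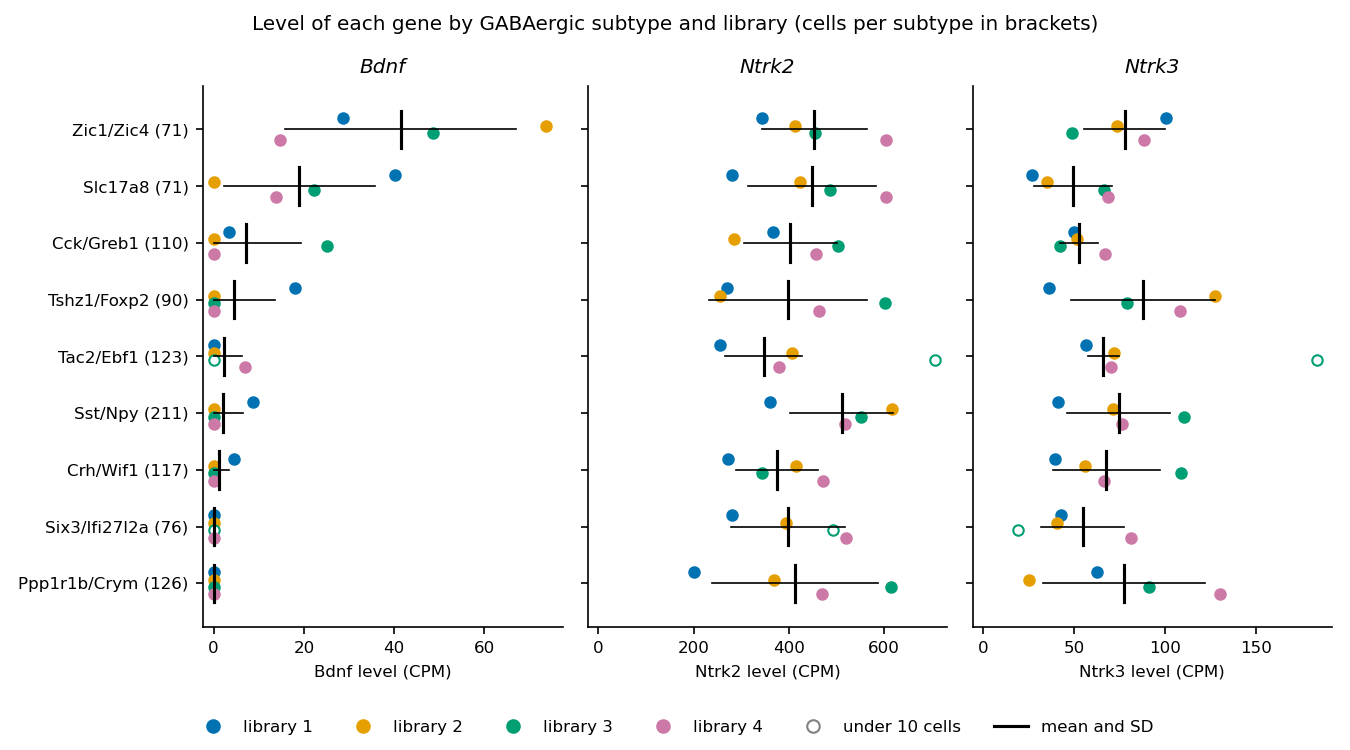
Levels of the 3 genes in CPM (x axes, a scale of its own for each gene) in 9 GABAergic subtypes named by their gate markers (y axis, number of cells in brackets), 1 point per library, with mean and SD over libraries of at least 10 cells. Bdnf is at 0 in most libraries outside the Zic1/Zic4 and Slc17a8 subtypes, while the receptor levels of all subtypes overlap.

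Ntrk3 was sparser, with 604 UMIs in 499 cells, and was shared by neurons, astrocytes and oligodendrocyte precursors. In GABAergic neurons it was 45.8, 52.3, 74.0 and 74.6 CPM in libraries 1 to 4, a mean of 61.7 ± 14.8 CPM (SD, n = 4). In glutamatergic neurons it was 41.0, 65.6 and 160 CPM in libraries 1, 2 and 4, from 11, 5 and 7 UMIs, and 48.1 CPM in library 3. The transmitter classes overlapped. Their log2 difference was 0.14 (95% interval -0.62 to 0.90, edgeR quasi-likelihood adjusted p = 0.918).

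Oligodendrocyte precursors had 133, 50.1, 119 and 36.4 CPM of Ntrk3, from 12 UMIs in all, and astrocytes 23.5, 68.7, 46.2 and 47.4 CPM, also from 12 UMIs. Both overlapped the GABAergic libraries. The log2 difference from GABAergic neurons was 0.53 for the precursors (95% interval -0.47 to 1.54, edgeR quasi-likelihood adjusted p = 0.389) and -0.16 for astrocytes (95% interval -1.10 to 0.77, adjusted p = 0.768). Astrocytes and precursors differed by -0.70 (95% interval -2.01 to 0.61, adjusted p = 0.492). None of these 3 differences passed, and differences anywhere within these wide intervals remain compatible with the counts.

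Oligodendrocytes had 4 Ntrk3 UMIs in 916 cells, all in library 4, so 3 libraries were at 0 and the other at 13.9 CPM. The GABAergic level was 22.6 times the oligodendrocyte level over pooled UMIs (95% counting interval 8.78 to 83.3). The fitted log2 difference was -3.98 (SE 0.50, edgeR quasi-likelihood adjusted p = 8.01e-14) from GABAergic neurons and -4.52 (SE 0.84, adjusted p = 8.84e-07) from precursors. Without library 4 every oligodendrocyte library was at 0 and the fitted values, -8.08 and -8.68, are no bounds. Ntrk2 and Ntrk3 thus were both lower in oligodendrocytes than in their precursors.

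Among GABAergic subtypes Ntrk3 ran from 49.3 ± 21.4 CPM in the Slc17a8 subtype (SD, n = 4) to 87.6 ± 39.6 CPM in the Tshz1 and Foxp2 subtype (SD, n = 4). In the latter the 4 libraries were at 36.1, 127, 79.1 and 108 CPM, from 4 to 7 UMIs each. All neighbours overlapped, and the test of any difference gave F = 0.72 (edgeR quasi-likelihood adjusted p = 0.766).

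The series is about neurons that express prepronociceptin (Pnoc), so the 3 genes were compared between 456 GABAergic neurons with a Pnoc UMI and 1663 without. The Pnoc-positive cells were deeper, at a median of 5074 against 3091 UMIs. Ntrk2 was 410 ± 61.8 CPM (SD, n = 4) in Pnoc-positive and 416 ± 97.5 CPM in Pnoc-negative cells, a log2 difference of 0.02 (95% interval -0.12 to 0.17, edgeR quasi-likelihood adjusted p = 0.943). Ntrk3 was 58.8 ± 8.48 and 62.2 ± 17.4 CPM, a log2 difference of 0.00 (SE 0.15, 95% interval -0.29 to 0.30, adjusted p = 1.00). In this comparison 2.72% of 9625 genes passed (1.32% higher, 1.40% lower).

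Bdnf was 5.11, 6.14, 0 and 6.96 CPM in the Pnoc-positive cells of libraries 1 to 4, from 13 UMIs, and 8.14, 7.22, 14.2 and 8.83 CPM in the Pnoc-negative cells, from 56 UMIs. It was lower in the Pnoc-positive cells of each library, and the sets did not overlap, as for 1.95% of 18344 genes. The fit without the low-count filter gave a log2 difference of -0.86 (SE 0.46, edgeR quasi-likelihood adjusted p = 0.675), so the difference did not pass.

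The 3 genes were then compared with each other within the 2119 GABAergic neurons. Ntrk2 and Ntrk3 were detected together in 310 cells. The Ntrk2 level was 421 ± 70.0 CPM in cells with an Ntrk3 UMI and 413 ± 94.6 CPM in cells without (SD, n = 4), higher in 1 of 4 libraries, with a mean log2 difference of 0.04 ± 0.14 (exact two-sided sign-flip permutation p = 1.00, where 4 libraries allow no p below 1 in 8). The Ntrk3 level was 59.0 CPM in cells with an Ntrk2 UMI and 70.8 CPM in those without, with a mean log2 difference of -0.23 ± 0.45 (exact permutation p = 0.50). The 43 cells with a Bdnf UMI had 357 ± 117 CPM of Ntrk2, against 418 ± 91.0 CPM in the others, higher in 2 of 4 libraries (exact permutation p = 0.625). Of 6 such comparisons the smallest adjusted p was 0.90, and with 4 libraries none could pass 0.05.

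Over 13 class and subtype means, Pearson's r of log2(CPM + 1) was 0.81 between Ntrk2 and Ntrk3, 0.03 between Bdnf and Ntrk2 and 0.30 between Bdnf and Ntrk3. These points share libraries, and the 9 subtypes are all GABAergic, so the values are descriptions. Oligodendrocytes were the lowest point for both receptors, at 25.6 CPM of Ntrk2 and 3.46 CPM of Ntrk3. Astrocytes were highest in Ntrk2, at 1475 CPM, but had less Ntrk3, 46.5 CPM, than any of the 9 subtypes. How far r rests on the oligodendrocyte point was not tested. Of 7722 genes searched, those most like Bdnf were Iqcc (r = 0.80), Lhx5 (0.80), Samd3 (0.80), Tbr1 (0.79) and Fezf1 (0.79). Lhx5, Tbr1 and Fezf1 encode transcription factors of forebrain development, and their mean levels in glutamatergic neurons were 51.3, 72.4 and 52.9 CPM, against 1.97, 0.557 and 0.381 CPM in GABAergic neurons. In Zic1 and Zic4 cells Lhx5 stood at 18.7 CPM, Samd3 at 8.12, Fezf1 at 7.74 and Tbr1 at 4.06 CPM. Samd3 was 0.356 CPM in GABAergic neurons as a whole. Lhx5 was also 7.45 CPM in Cck and Greb1 cells. These genes were picked by likeness to Bdnf over these same means and reached the required 50 CPM only in glutamatergic neurons. Their pattern thus follows from the choice and is no separate support.

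The genes most like Ntrk2 were Pitpnc1 (r = 0.98), Acsl6 (0.97), Cpe (0.96), Trim9 (0.96) and Rgs20 (0.96), all of them highest in astrocytes among the 5 classes and at most 37.4 CPM in oligodendrocytes. Cpe, the third, encodes carboxypeptidase E, known as a sorting receptor for the Bdnf precursor, and is also in the list of pathway genes. Those most like Ntrk3 were Rgs7bp (r = 0.98), Strbp (0.97), Adcy3 (0.97), Rims2 (0.96) and Fnbp1l (0.96), all of them lowest in oligodendrocytes among the 5 classes. Rims2 encodes a scaffold protein of the presynaptic active zone. Both sets were picked by likeness over these same means, so these orders of classes follow from the choice.

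A list of 53 genes of neurotrophin signalling, the 3 members included, was read in the same fits. The ligand genes Ntf3 and Ntf5 and the receptor gene Ngfr were sparse in kept cells, with 14, 3 and 15 UMIs. No Ntf3 UMI was in a glutamatergic neuron or a glial cell of the 5 classes. With 14 Ntf3 UMIs among 12016405 UMIs of kept cells, this cannot place these classes below the rest. The glutamatergic class held only 429525 UMIs. The filter left 25 of the 53 genes in the fit across classes. Of these, 16 passed between astrocytes and GABAergic neurons (6 higher in astrocytes, 10 lower, median log2 difference -0.16), where 69.6% of all genes passed with a median of -0.35, and 21 between oligodendrocytes and GABAergic neurons (7 higher, 14 lower, median -0.82), where 79.0% of all genes passed with a median of -0.14. Between oligodendrocyte precursors and GABAergic neurons 12 passed (6 higher, 6 lower, median -0.14), where 53.1% of all genes passed with a median of -0.21. In these 3 comparisons the list was called about as often as all genes. Between glutamatergic and GABAergic neurons 3 passed, all lower in glutamatergic neurons (median -0.34), where 3.08% of all genes passed, 2.23% as lower, with a median of -0.16.

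Among genes that handle the precursor, Cpe was, like Ntrk2, highest in astrocytes and lowest in oligodendrocytes of the 5 classes. It was 4218 ± 1682 CPM in astrocytes, 621 ± 79.0 CPM in GABAergic neurons, 634 ± 93.5 CPM in oligodendrocyte precursors and 37.4 ± 8.41 CPM in oligodendrocytes (SD, n = 4 each). Cpe rose in astrocytes by a log2 difference of 2.98 (SE 0.12, edgeR quasi-likelihood adjusted p = 1.85e-72) and fell in oligodendrocytes by 3.59 on the log2 scale (SE 0.18, adjusted p = 8.07e-54), both against GABAergic neurons. Sort1, which encodes sortilin, a receptor that binds proneurotrophins, went the other way in oligodendrocytes. It stood at 260 ± 105 CPM there and 47.8 ± 6.93 CPM in GABAergic neurons, a log2 difference of 2.83 (SE 0.15, adjusted p = 6.02e-50). Cadps2, which acts in the release of dense-core vesicles, was 111 ± 25.4 CPM in GABAergic and 117 ± 57.4 CPM in glutamatergic neurons. Within GABAergic neurons it was higher in Pnoc-positive cells by 0.75 (SE 0.13, edgeR quasi-likelihood adjusted p = 0.000775). Of 41 list genes tested for Pnoc 3 passed, against 2.72% of all genes, the other two being lower Sorcs1 (-0.65, edgeR adjusted p = 0.0262) and lower Creb1 (-0.54, edgeR adjusted p = 0.0329). None of these 3 calls held in every alternative. Cadps2 was 0.48 (edgeR adjusted p = 0.0835) without library 1 and 0.67 (adjusted p = 0.495) without the library block, and Sorcs1 and Creb1 each lost the call when any 1 of the 4 libraries was left out, with adjusted p from 0.0634 to 0.132 and from 0.0780 to 0.198, and with DESeq2 (0.603 and 0.815). With cells thinned to 1000 UMIs, which evens the depth of the Pnoc sets, Cadps2 was 0.73 (edgeR adjusted p = 0.152), Sorcs1 -0.48 (adjusted p = 0.732) and Creb1 -0.19 (adjusted p = 0.907).

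Among partners of the receptors, Ngfrap1 (Bex3 in newer naming) and Maged1, whose products bind p75, were lower in glia. Ngfrap1 was 953 ± 191 CPM in GABAergic neurons, 82.1 ± 47.0 CPM in astrocytes and 54.9 ± 7.31 CPM in oligodendrocytes, and Maged1 was 1016 ± 276, 143 ± 64.1 and 93.5 ± 36.4 CPM. The adaptor gene Gab1, which couples receptors to phosphoinositide 3-kinase, was higher in the 3 glial classes, at 236 ± 83.5 CPM in oligodendrocytes, 95.5 ± 29.2 CPM in precursors, 30.7 ± 13.4 CPM in astrocytes and 1.47 ± 0.50 CPM in GABAergic neurons, with 1 UMI in glutamatergic neurons. Ptpn11, which encodes the phosphatase SHP2, was also higher in oligodendrocytes, at 329 ± 35.6 against 163 ± 10.4 CPM (log2 difference 1.49, SE 0.12, edgeR quasi-likelihood adjusted p = 7.61e-27). Kidins220, a scaffold that binds Trk receptors, was higher in astrocytes by 1.11 (SE 0.21, adjusted p = 1.26e-06). In oligodendrocytes, then, Gab1 and Ptpn11 rose while both receptor genes fell against GABAergic neurons.

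**Figure D5:**
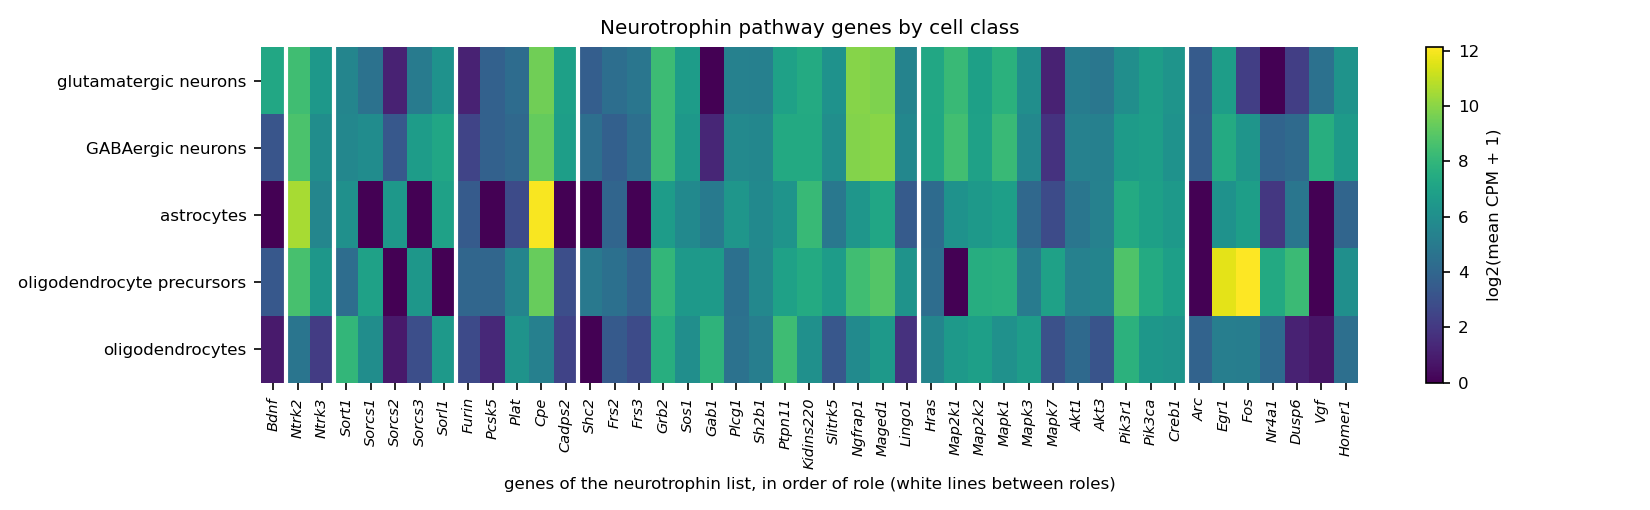
Mean level of the 45 neurotrophin list genes with more than 30 UMIs in kept cells, as log2(mean CPM + 1) by colour, in 5 cell classes (rows), with genes (columns) in order of role: ligands, receptors, sortilin family, processing, adaptors and partners, kinases and factors, responsive genes. Each column is to be read down, since levels of different genes are not comparable in 3′ counts; Bdnf is brightest in glutamatergic neurons, Ntrk2 and Cpe in astrocytes, and Fos and Egr1 in oligodendrocyte precursors.

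The genes that fell in glutamatergic neurons were all from the list of 7 genes responsive to neurotrophins or activity. Vgf, which encodes a secreted neuropeptide precursor induced by neurotrophins, was 21.8 ± 27.2 CPM (SD, n = 3) in glutamatergic and 196 ± 44.5 CPM (n = 4) in GABAergic neurons, a log2 difference of -2.36 (SE 0.34, edgeR quasi-likelihood adjusted p = 7.06e-09). The transcription factor gene Fos was 3.73 ± 6.46 against 79.9 ± 37.1 CPM (log2 difference -3.17, SE 0.65, adjusted p = 0.000195). Its glutamatergic mean is near the floor, since 3 UMIs over the 75 cells would be 6.98 CPM. The fitted Fos difference ran from -8.42 to -1.26 over 19 alternatives. Egr1 was 106 ± 126 against 171 ± 79.6 CPM (log2 difference -1.16, SE 0.32, adjusted p = 0.0156). Egr1 lost its call without library 1 (-0.85, edgeR adjusted p = 0.408), without library 2 (-0.97, adjusted p = 0.166) and with DESeq2's size factors (-0.98, adjusted p = 0.0829). With DESeq2 in place of edgeR the adjusted p was 0.859 for Vgf, 0.0812 for Fos and 0.551 for Egr1, each still lower. Fos was -1.26 (edgeR adjusted p = 0.0653) with the 21 double-gated neurons counted as glutamatergic. With cells thinned to 1000 UMIs Fos was -2.39 (edgeR adjusted p = 0.298). The early response list as a whole was 158 to 366 CPM in the glutamatergic libraries and 354 to 825 CPM in the GABAergic ones, and it was lower in the glutamatergic cells of each of the 4 libraries, with 7 such cells in library 3.

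In oligodendrocyte precursors Fos was 4506 ± 1132 CPM and Egr1 3175 ± 665 CPM (SD, n = 4), log2 differences from GABAergic neurons of 5.84 (SE 0.16, edgeR quasi-likelihood adjusted p = 3.66e-109) and 4.20 (SE 0.15, adjusted p = 3.04e-81). The 1 Bdnf UMI in 104 such cells stood beside these levels. Across the 9 GABAergic subtypes 13 of 23 tested list genes differed, against 33.5% of all genes, among them Cadps2 (F = 19.2, adjusted p = 3.77e-13), Map2k1 (F = 16.4, adjusted p = 8.15e-12), which encodes the kinase MEK1, and Sorl1 (F = 8.42, adjusted p = 7.91e-07), while both receptor genes were among the 10 that did not pass.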

How the data were processed

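The authors deposited raw UMI counts per gene and barcode for each of 4 Drop-seq libraries. Per the submitters' processing notes, bcl2fastq 2.18.0.12, STAR 2.4.2a and Picard 2.2.4 were used with mm10 and GRCm38; roles, annotation and counting strand are not given in the sources used here. Of 20136 gene names, 18830 (93.5%) were in GENCODE vM21.

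Barcodes with at least 400 genes and at most 10% mitochondrial UMIs were kept, and doublets called per library with Scrublet (scanpy 1.11.5, expected rate 0.05) were removed. A transmitter class needed at least 2 UMIs of its list and 80% of both lists, a subtype at least 2 UMIs and 66.7% of subtype-marker UMIs. UMIs were summed per class and library with at least 10 cells. Classes with at least 3 such libraries entered edgeR 4.0.16 (TMM, filterByExpr, quasi-likelihood F-test, library as a block, Benjamini-Hochberg over all genes tested, threshold 0.05). SE is the log2 difference divided by the square root of F, and gate markers were left out. On simulated counts for the astrocyte comparison, 73.5% of 200 genes changed 4-fold among 2729 were recovered, and for the Pnoc comparison 40.5% of 200 changed 2-fold among 9433. The simulated counts had a common profile for all classes, a set dispersion of 0.05 and no library effect. These shares are thus not the power of the real comparisons. CPM is a gene's UMIs per 1000000 UMIs of the class and library; the pseudocount was 1. Intervals and limits from counts (95%, 3 counts for a 0) cover counting error only.

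Each class is compared within the same 4 libraries, so the library pairs the sums by construction. The libraries are separate pools of mice, and their counts differ by more than sampling noise (chi-square per degree of freedom 3.65 to 17.7). Nothing marks separate animals within a pool. All classes of a fit share an estimate of the spread for each gene. With library as a block, the p-values thus rest on variation between pooled libraries over all classes of the fit. They do not measure how a single difference varies over its own libraries where a fit holds more classes, nor variation between animals. Bdnf is tested only without the low-count filter. Endothelial cells had 2 libraries with 10 cells and were not tested. Named genes are the 3 genes, the 53-gene list and, for each member, the 5 genes of highest correlation over class means among those with at least 50 CPM in one. The members and lists were chosen with earlier results of these data known. Alternatives included DESeq2 1.42.0, other gates, filters and scalings, and leaving out each library.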

Additional observations from a re-analysis of the deposited data

Results flagged for a closer look

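Bdnf in the Cck and Greb1 subtype of GABAergic neurons had 1 library far from the others. Library 3 stood at 25.2 CPM, from 6 UMIs in 2 of 33 cells, against 3.33, 0 and 0 CPM in libraries 1, 2 and 4, and the gap was 0.868 of the whole range, above Dixon's 95% critical value for 4 samples. Of 25 sets of 4 libraries tested in this way this was the 1 set past that value, and chance gives about 1 in 20.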

How the results depend on the processing

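Of the alternative values of the main comparisons, 210 kept their direction and side of the threshold, or stayed within 1 SD for the Bdnf difference. In 19 the sign changed, all for differences that passed neither in the fit as reported nor in the alternative. Ntrk2 between transmitter classes was 0.057 with thinned cells. Ntrk2 in precursors against GABAergic neurons was 0.029 with at most 5% mitochondrial UMIs, 0.0039 with DESeq2's size factors, 0.041 with thinned cells and -0.49 to 0.051 with 1 library left out. Ntrk3 was 0.020 in astrocytes against GABAergic neurons with DESeq2's size factors, and with a class gate of 90% it was 0.14 in astrocytes against precursors and -0.41 in precursors against GABAergic neurons. Ntrk3 between transmitter classes was -0.041 with no replicate block and -0.030 to 0.11 with 1 library left out. For Pnoc, Ntrk2 was -0.053 with at most 5% mitochondrial UMIs, -0.0087 with no replicate block and -0.018 to 0.071 with 1 library left out. Ntrk3 for Pnoc was -0.0031 with DESeq2, -0.14 with at most 5% mitochondrial UMIs, -0.076 with no replicate block, -0.017 without the low-count filter, -0.037 with thinned cells and -0.12 to 0.10 with 1 library left out. Single subtypes against the others changed sign 16 times, none past the threshold: Ntrk2 in Ppp1r1b and Crym (0.024 with no replicate block, 0.0041 thinned), Six3 and Ifi27l2a (0.091) and Tshz1 and Foxp2 (0.029), both with at most 5% mitochondrial UMIs, Ntrk3 in Crh and Wif1 (0.022 without the filter) and Tac2 and Ebf1 (-0.019 with no replicate block). With 1 library left out, Ntrk2 ran from -0.13 to 0.12 in Cck and Greb1, -0.22 to 0.10 in Ppp1r1b and Crym, -0.058 to 0.015 in Six3 and Ifi27l2a, -0.025 to 0.13 in Slc17a8 and -0.25 to 0.011 in Tshz1 and Foxp2. Ntrk3 ran from -0.27 to 0.094 in Crh and Wif1, -0.093 to 0.23 in Sst and Npy and -0.020 to 0.53 in Zic1 and Zic4. The test of Ntrk2 among subtypes passed with a subtype gate of 3 UMIs (F = 4.31, adjusted p 0.00911, against 0.00911 to 0.824 over its 17 alternatives), and the Bdnf difference at 1000 UMIs per cell was 1.25 ± 4.27 (SD) in 1 random draw. The causes were not tested. Leaving out 1 library at a time gave 3.47 to 4.45 for Bdnf between transmitter classes. For Ntrk2 it gave 1.88 to 2.26 in astrocytes and -3.77 to -3.14 in oligodendrocytes against GABAergic neurons. With no replicate block for the library, the Ntrk2 values were 2.11 and -3.56, Ntrk3 in oligodendrocytes was -4.00, and no call of the receptors changed. The genes called between transmitter classes fell from 113 to 57 without the block and to 39 with DESeq2, and those called for Pnoc from 262 to 23 and 65. With DESeq2's size factors in edgeR the split between transmitter classes was 53 higher and 48 lower, against 31 and 82. Neurons with both lists counted as glutamatergic (4.05) and sums of at least 5 cells (3.96), chosen after seeing the data, left the Bdnf difference in place. Bdnf is limited by 75 glutamatergic cells and 87 UMIs, and Ntrk3 fell under the low-count filter in some alternatives, which then gave no value. Of 22 results for named pathway genes none changed sign, and 6 lost their call in at least 1 alternative: Vgf in 1 of 17, Fos in 3 of 19 and Egr1 in 6 of 19 between transmitter classes, and Cadps2 in 3, Sorcs1 in 9 and Creb1 in 9 of 19 for Pnoc.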

Other observations

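Neurons without a transmitter gate, 242 cells at a median of 894 UMIs, had a Bdnf level of 143, 49.3, 44.9 and 18.9 CPM in libraries 1 to 4, above the GABAergic level in each, with 18 of their 24 UMIs in library 1. Their Ntrk2 level was 449 ± 64.0 CPM (SD, n = 4) and their Ntrk3 level 55.2 ± 40.4 CPM. The 351 cells without any class gate had 593 ± 40.8 CPM of Ntrk2, between neurons and astrocytes, and 1 cell with Bdnf UMIs. Sorcs2, of the sortilin family, was 87.5 ± 28.3 CPM in astrocytes and 9.28 ± 3.81 CPM in GABAergic neurons (SD, n = 4), too low for the filter and so without a test.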
